A study of Mus musculus with 6 samples.

Results

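Described here are 10 core circadian clock genes, Clock, Arntl (also called Bmal1), Per1, Per2, Per3, Cry1, Cry2, Nr1d1, Nr1d2 and Dbp, picked by symbol among the 55232 features of the deposited table. All 10 were found and all 10 passed the filter on low counts. RNA was sequenced from endothelial cells of mouse lung microvessels, which the labels call a cell line, after 12 h in the lower chamber of a co-culture. The 3 control samples had untreated TCMK-1 cells, an epithelial line from mouse kidney tubules, as partners. In the other 3 samples, called the repletion group here, the TCMK-1 partners had been depleted of ATP and then allowed to regain it, which the labels abbreviate as IR. The endothelial cells were untreated in both groups. No strain, time of day or synchronisation of the cultures was stated in the sources used here, and 1 collection time cannot show a rhythm, its phase or its amplitude.

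The mammalian clock is a feedback loop of transcription factors that runs in most cells, vascular endothelium included. CLOCK and ARNTL bind as a pair to E-box sequences and activate the Per and Cry genes, whose proteins return to the nucleus and inhibit that pair. In a coupled loop, the REV-ERB receptors encoded by Nr1d1 and Nr1d2 repress Arntl and compete with the activating ROR receptors for the same sites. DBP, an output factor made under E-box control, binds D-box sequences in other clock genes.

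The sequences around the annotated starts were searched for the letters of sites through which these factors can act. Sequence further from the starts was not searched, so a gene without a match may have sites elsewhere. Only the exact letters listed below were matched, so variant forms of a site inside a window were left unmarked. RefSeq windows of 300 bases in GRCm38.p6, from 250 bases before a start to 50 after it, matched 9 of the 10 members in 13 windows. Per2 had no entry. The motifs searched on both strands were the E-box CACGTG, the related E-prime box CACGTT, the D-box TTATGNAA, the cAMP response element TGACGTCA and the nuclear receptor core AGGTCA, a part of the site that RORs and REV-ERBs share. The windows of the 4 members that passed the test of expression and held a match come first, with matches in capitals.
Clock, chr5:76303453-76303752, reverse strand: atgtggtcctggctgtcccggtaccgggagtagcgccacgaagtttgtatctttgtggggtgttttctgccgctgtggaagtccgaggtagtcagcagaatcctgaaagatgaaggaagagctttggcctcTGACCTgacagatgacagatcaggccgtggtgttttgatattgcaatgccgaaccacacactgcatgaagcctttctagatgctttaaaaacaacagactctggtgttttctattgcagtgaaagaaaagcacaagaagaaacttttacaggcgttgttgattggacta
Arntl, chr7:113207261-113207560, forward strand: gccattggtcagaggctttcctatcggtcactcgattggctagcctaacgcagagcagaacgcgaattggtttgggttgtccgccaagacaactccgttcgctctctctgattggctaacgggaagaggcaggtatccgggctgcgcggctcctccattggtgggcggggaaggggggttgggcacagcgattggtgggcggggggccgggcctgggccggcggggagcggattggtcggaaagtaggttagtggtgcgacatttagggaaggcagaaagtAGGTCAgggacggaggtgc
Cry2, chr2:92434020-92434319, reverse strand: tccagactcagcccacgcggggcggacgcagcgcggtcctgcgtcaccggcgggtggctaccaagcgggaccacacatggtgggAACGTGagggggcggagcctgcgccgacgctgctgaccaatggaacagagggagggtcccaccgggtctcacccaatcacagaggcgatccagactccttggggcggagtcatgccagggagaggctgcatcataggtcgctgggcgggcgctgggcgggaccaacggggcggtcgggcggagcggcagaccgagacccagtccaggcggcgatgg
Nr1d1, chr11:98775328-98775627, reverse strand: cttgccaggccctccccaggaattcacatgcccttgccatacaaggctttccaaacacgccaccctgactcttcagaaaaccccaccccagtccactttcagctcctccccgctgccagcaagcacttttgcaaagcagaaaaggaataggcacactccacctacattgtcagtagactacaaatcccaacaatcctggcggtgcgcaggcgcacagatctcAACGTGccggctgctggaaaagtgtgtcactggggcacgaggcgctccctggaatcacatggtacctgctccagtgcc
The Clock window belongs to 1 of 3 annotated starts, and the other 2 windows held no match. The Arntl window is 1 of 2, and its nuclear receptor core lies after the start, at bases 32 to 37. Cry2 and Nr1d1 each held 1 E-prime box, at -166 to -161 and -28 to -23 from the start, on the strand opposite to the gene. The CACGTG E-box was found only in the windows of Per1 and Cry1, neither of which passed the test of expression.
Per1, chr11:69098699-69098998, forward strand: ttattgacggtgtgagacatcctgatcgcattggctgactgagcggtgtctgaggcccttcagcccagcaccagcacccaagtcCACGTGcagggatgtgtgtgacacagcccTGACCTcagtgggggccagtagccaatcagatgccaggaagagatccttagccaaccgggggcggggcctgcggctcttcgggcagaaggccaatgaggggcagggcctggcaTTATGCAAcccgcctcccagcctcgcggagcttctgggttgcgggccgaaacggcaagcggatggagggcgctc
Cry1, chr10:85185005-85185304, reverse strand: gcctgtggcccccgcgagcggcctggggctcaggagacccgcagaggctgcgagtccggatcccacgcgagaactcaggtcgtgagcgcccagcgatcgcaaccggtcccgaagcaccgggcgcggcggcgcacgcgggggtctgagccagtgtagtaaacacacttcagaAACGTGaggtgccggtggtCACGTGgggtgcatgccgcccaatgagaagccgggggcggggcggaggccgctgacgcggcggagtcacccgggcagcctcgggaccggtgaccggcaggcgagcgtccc
Per1 held its E-box at -166 to -161, a nuclear receptor core at -137 to -132 and a D-box match at -24 to -17. This Per1 window is 1 of 2, and the other held no match. Cry1 held its E-box at -60 to -55 and an E-prime box at -79 to -74. Per3 held 2 D-box matches and Nr1d2 held 1 nuclear receptor core, while the Dbp window held none of the 5 motifs. The cAMP response element was in none of the 13 windows. Of all 32851 promoter windows, 7.15% held CACGTG, 4.68% CACGTT, 3.38% TTATGNAA, 1.79% TGACGTCA and 16.3% AGGTCA. A match describes letters in the window only, and binding was not measured.

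The libraries held 15582349 to 17817618 counts. Of 12 endothelial markers, 11 had a mean above 1 CPM (the count scaled to a common library size), and the 12 summed to 2380 to 2651 CPM in control and 2532 to 2983 in the repletion group. The remaining marker, Cldn5, had 3 counts in repletion sample 2 and 0 in every other sample. Of 15 kidney tubular markers 12 had a count, with sums of 149.9 to 218.7 and 124.6 to 165.2 CPM, mostly Lcn2, and Epcam, Krt18 and Slc34a1 were at 0. Of 10 leukocyte markers 7 had a count, with sums of 378.4 to 417 and 223.1 to 311.4 CPM, mostly Cd68, while Itgam, Cd3e and S100a9 were at 0 and Ptprc had 4 counts in 1 library. Of 10 fibroblast and mural markers 9 had a count, with sums of 20.7 to 23.5 and 19.5 to 26.3 CPM and Lum at 0. Of 9 lung epithelial markers 4 had a count, with sums of 0.2245 to 1.068 and 1.565 to 1.989 CPM and Sftpc and Nkx2-1 at 0. The part of these differing sums in the results below was not tested. No label ties each sample to its own culture, so p-values reflect sample-to-sample spread alone, and that spread may be technical.

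Of the 10 clock genes, 5 rose in the repletion group and 1 fell, at an adjusted p under 0.05 in edgeR's quasi-likelihood test. Clock and Arntl, the activator pair, rose 1.90-fold and 1.49-fold. Per2 rose 1.84-fold, Dbp 1.48-fold and Cry2 1.34-fold. Nr1d1 fell 1.54-fold, and Per1, Per3, Cry1 and Nr1d2 did not pass. Of all 13804 tested features, 20.5% rose and 19.2% fell by the same rule, so that 39.7% were called in either direction. That was 2830 higher and 2654 lower, or 2267 and 3495 with each library's trend in length and GC content removed. The median log2 fold change was 0.18 over the 10 clock genes and 0.00 over all tested features. Sample values did not overlap between groups for 7 of the 10 genes, 5 higher and 2 lower in the repletion group. Among all tested features the groups did not overlap for 50.3%, 25% higher and 25.4% lower. In RNA from whole cultures, fewer cells that express a gene and less RNA per cell cannot be told apart.

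**Figure D1:**
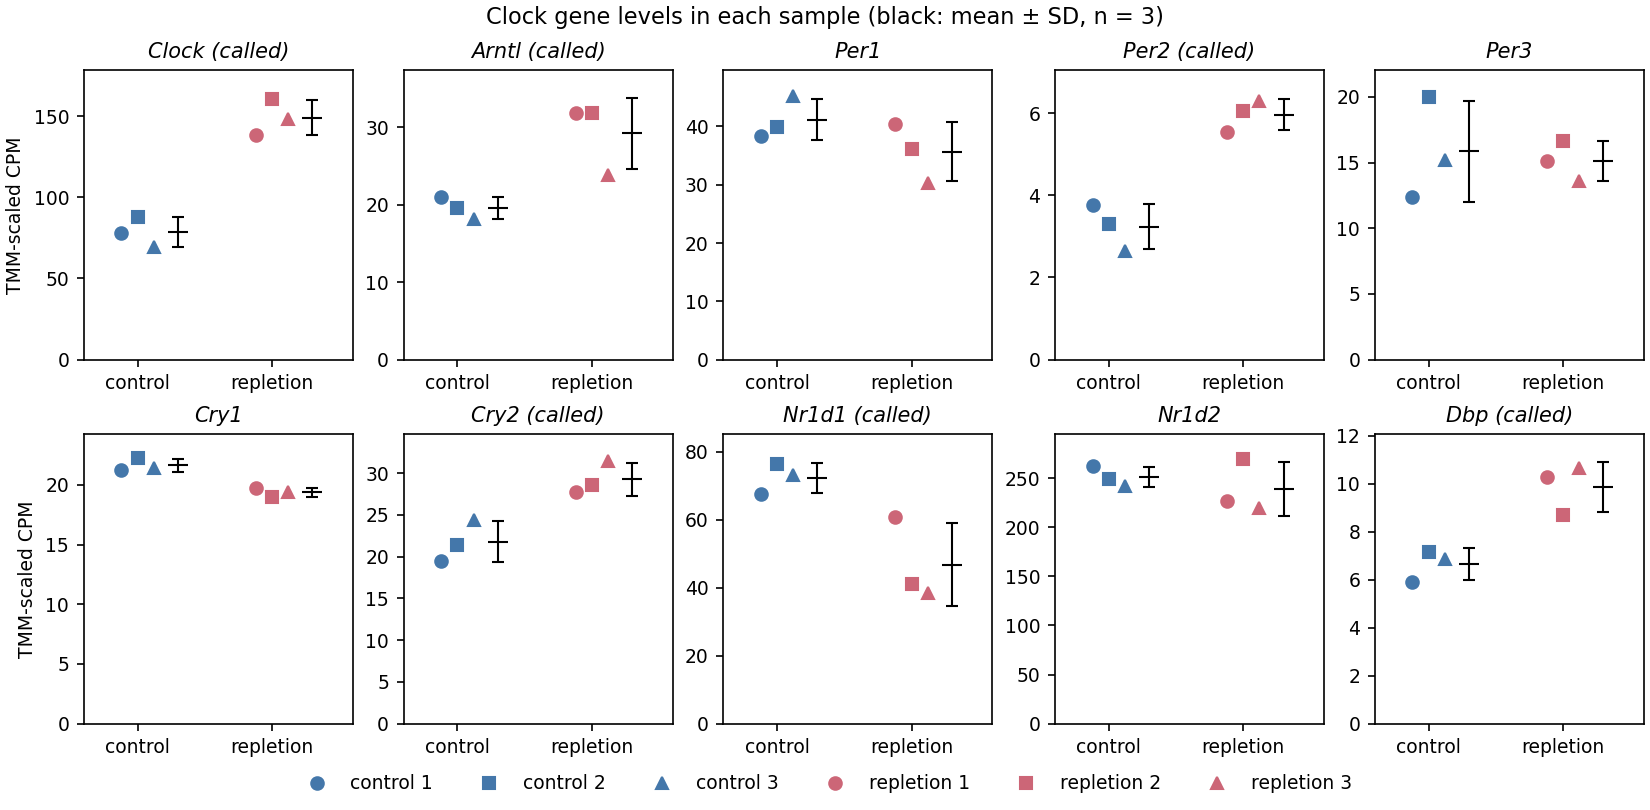
TMM-scaled CPM of each clock gene (y axis, from 0) in the 3 control and 3 repletion samples, with the mean and SD of each group. Clock, Arntl, Per2, Cry2 and Dbp lie higher in all 3 repletion samples than in any control sample, and Nr1d1 and Cry1 lie lower.

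Clock (ENSMUSG00000029238, chromosome 5, 76209868 to 76304792, reverse strand, all positions in GRCm38) encodes a DNA-binding partner of the activator pair and had the smallest p of the 10. It stood at 77.8, 87.8 and 69.4 CPM in control samples 1, 2 and 3 and at 138, 160.4 and 148 CPM in repletion samples 1, 2 and 3. Every repletion sample was well above every control sample. The means were 78.3 ± 9.24 and 149 ± 10.998 CPM (SD, n = 3), and Clock rose by 0.93 ± 0.11 (SE) on the log2 scale (adjusted p = 9.8e-06). At 13727 bases Clock is the longest of the 10 genes in the deposited table, and the GC content of its longest transcript is 40.9%. With that trend in length and GC content removed, Clock rose by 0.55 (adjusted p = 2.7e-04, from 5.9e-13 to 2.7e-04 across its alternatives).

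Arntl (ENSMUSG00000055116, chromosome 7, 113207465 to 113314126, forward strand), the partner of CLOCK, was the less abundant of the pair. Its levels were 21.0, 19.5 and 18.2 CPM in control and 31.9, 31.9 and 23.9 CPM in the repletion group. Repletion sample 3 lay nearest to the controls but above all of them. Arntl rose by 0.58 ± 0.15 (adjusted p = 0.00598). With the length and GC trend removed, Arntl rose by 0.41 (adjusted p = 0.0379, from 0.00199 to 0.0379 across its alternatives). An antisense feature, Gm45355, shares 33 exonic bases with Arntl and had 0 to 3 counts in any library.

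The Per genes, which encode inhibitors of the activator pair, had 1 of 3 members past the test, beside 39.7% of all tested features. Per2 (ENSMUSG00000055866, chromosome 1, 91415982 to 91459324, reverse strand) was the scarcest member, with 59, 52 and 46 counts in control and 95, 96 and 105 in the repletion libraries. In CPM these were 3.75, 3.30 and 2.65 against 5.54, 6.04 and 6.29, and the groups did not overlap. Per2 rose by 0.88 ± 0.27 (adjusted p = 0.0147). Its call was lost without control replicate 3 (0.75, adjusted p = 0.0703) and without repletion replicate 3 (0.84, adjusted p = 0.0560), and across its alternatives the adjusted p went from 0.00915 to 0.0703.

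Per1 (ENSMUSG00000020893, chromosome 11, 69095217 to 69109960, forward strand) was the most abundant Per gene per length. It stood at 38.4, 39.8 and 45.2 CPM in control and 40.4, 36.2 and 30.4 CPM in the repletion group, and the groups overlapped through repletion sample 1. Its log2 fold change was -0.21 (95% interval -0.49 to 0.08, adjusted p = 0.239). It passed as lower once the length and GC trend was removed (-0.35, adjusted p = 0.0377, from 0.0377 to 0.623 across its alternatives). With that trend removed, the median log2 fold change of all tested features was -0.08, against 0.00 with the trend kept. Per3 (ENSMUSG00000028957, chromosome 4, 151003652 to 151044665, reverse strand), a Per gene that is not essential for rhythms, stood at 12.3, 20.0 and 15.2 CPM in control and 15.1, 16.6 and 13.6 CPM in the repletion group. All 3 repletion samples lay within the range of the controls. The log2 fold change of Per3 was -0.07 (95% interval -0.46 to 0.32, adjusted p = 0.798).

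The cryptochromes inhibit CLOCK and ARNTL directly. Cry2 (ENSMUSG00000068742, chromosome 2, 92403646 to 92434043, reverse strand) stood at 19.5, 21.4 and 24.4 CPM in control and 27.7, 28.6 and 31.5 CPM in the repletion group. All repletion samples were above all controls. Cry2 rose by 0.42 ± 0.14 (adjusted p = 0.0244). The call was lost without control replicate 1 (0.111) or 2 (0.0881), without repletion replicate 3 (0.109) and with no filter on low counts (0.0635), and its adjusted p went from 0.0118 to 0.111 across the alternatives. An RNA on the opposite strand, D930015M05Rik, shares 295 exonic bases with Cry2 and had 0 to 8 counts in any library.

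Cry1 (ENSMUSG00000020038, chromosome 10, 85131700 to 85185064, reverse strand) varied little within each group, at 21.2, 22.3 and 21.4 CPM in control and 19.7, 18.9 and 19.4 CPM in the repletion group. The groups did not overlap, but the difference was small and did not pass the test. Its log2 fold change was -0.16 (95% interval -0.46 to 0.14, adjusted p = 0.387).

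The REV-ERB genes encode repressors of Arntl and were the most abundant members per length. Nr1d1 (ENSMUSG00000020889, chromosome 11, 98767932 to 98775333, reverse strand), which encodes REV-ERB alpha, stood at 67.4, 76.2 and 73.1 CPM in control and 60.8, 41.2 and 38.4 CPM in the repletion group. Repletion sample 1 lay near the controls while samples 2 and 3 were lower. Nr1d1 fell by 0.63 ± 0.15 on the log2 scale (adjusted p = 0.00310). It fell by 0.51 without repletion replicate 3 and by 0.86 without repletion replicate 1, and passed under all 16 alternatives (5.1e-06 to 0.0284). Nr1d1 shares 263 exonic bases, 8.55% of its own, with the thyroid hormone receptor gene Thra on the opposite strand. Thra had 8.38 ± 1.59 CPM in control and 8.40 ± 0.316 in the repletion samples (SD, n = 3; adjusted p = 0.995). The sources used here do not give the strand setting of the counting, so reads from such overlaps cannot be told apart.

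Nr1d2 (ENSMUSG00000021775, chromosome 14, 18204054 to 18239127, reverse strand), which encodes REV-ERB beta, had 262, 249.2 and 242 CPM in control and 227, 269.8 and 219.8 CPM in the repletion group. The groups overlapped, with repletion sample 2 the highest of all 6. Its log2 fold change was -0.07 (95% interval -0.29 to 0.15, adjusted p = 0.613). An annotated feature elsewhere, AC170187.1, matches 1385 bases of the longest Nr1d2 transcript at 96.1% identity, so the Nr1d2 count is uncertain. The deposited table holds no feature by that name, so no count of it can be given.

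Dbp (ENSMUSG00000059824, chromosome 7, 45705088 to 45710203, forward strand), the output factor, stood at 5.92, 7.17 and 6.86 CPM in control and 10.3, 8.69 and 10.7 CPM in the repletion group. All repletion samples were above all controls. Dbp rose by 0.57 ± 0.21 (adjusted p = 0.0359), the largest p of the 6 calls. The call was lost under 8 of 16 alternatives, namely without control replicate 1, 2 or 3 or repletion replicate 1 or 3 (0.0670 to 0.122), with no filter on low counts (0.0883), with a replicate block (0.0618) and with the length and GC trend removed (0.0820). Across all alternatives its adjusted p went from 0.0226 to 0.122. The authors' deposited table gives Dbp a log2 fold change of 0.57 and an adjusted p of 0.0654. In the authors' deposited table the other 5 called genes also had an adjusted p under 0.05, and the sign was the same for all 10 members. Dbp shares 539 exonic bases, 18.01% of its own, with the sphingosine kinase gene Sphk2 on the opposite strand. Sphk2 had 17.0 ± 2.44 and 19.0 ± 0.544 CPM (SD, n = 3; adjusted p = 0.456).

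**Figure D2:**
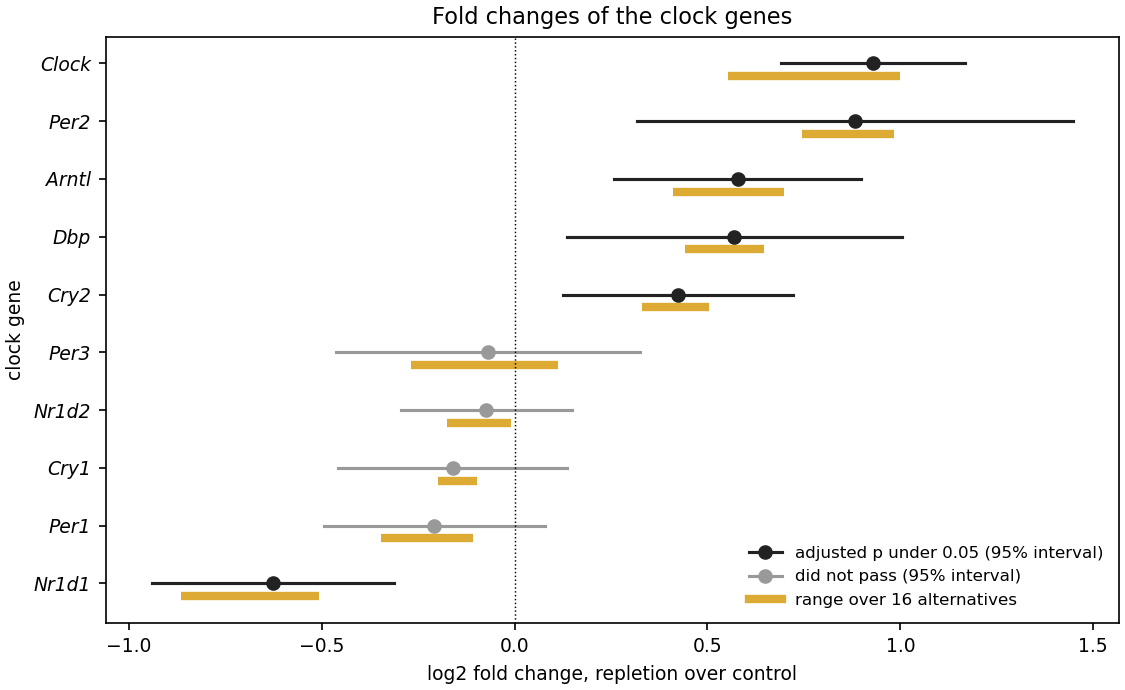
Log2 fold change of each clock gene (x axis, repletion over control) with its 95% interval, marked where the adjusted p was under 0.05, and the range of the fold change over 16 alternative settings as a bar. Clock, Per2, Arntl, Dbp and Cry2 lie above 0 and Nr1d1 below 0 under every alternative, and the bar of Per3 crosses 0.

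Levels per length, as deposited FPKM, put the genes in nearly the same order in both groups. In control, Nr1d2 led with 45.9 ± 1.87 FPKM (SD, n = 3), above 91.0% of tested protein-coding genes, followed by Nr1d1 with 23.2 ± 1.41. Per1 (7.22 ± 0.629 FPKM), Cry1 (6.40 ± 0.158) and Clock (5.63 ± 0.660) came next, and the ranges of Cry1 and Clock overlapped. Cry2 (3.41 ± 0.388), Arntl (2.57 ± 0.186), Dbp (2.19 ± 0.214) and Per3 (1.63 ± 0.395) followed, with overlapping ranges for Dbp and Per3. Per2 was last at 0.545 ± 0.0933 FPKM, above 10.5% of tested protein-coding genes. In the repletion group Clock, at 10.8 ± 0.865 FPKM, stood directly behind Nr1d2 (44.0 ± 5.23) and Nr1d1 (15.1 ± 3.86). It was ahead of Per1 (6.30 ± 0.874) and Cry1 (5.77 ± 0.0812), whose ranges overlapped. The other genes kept their order, Cry2 (4.61 ± 0.317), Arntl (3.86 ± 0.610), Dbp (3.28 ± 0.333), Per3 (1.57 ± 0.163) and Per2 (1.01 ± 0.0681), with overlapping ranges for Arntl and Dbp.

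Shares within each gene family, computed from FPKM inside a sample, do not depend on the scaling between samples. No length and GC trend was removed from them, and genes of a family differ in length (Cry1 3340 bases, Cry2 6320). Cry2 made up 32.7%, 33.7% and 37.7% of the cryptochrome sum in control samples 1, 2 and 3 and 42.6%, 44.4% and 46.2% in the repletion samples. The groups did not overlap, with means of 34.7% ± 2.62 and 44.4% ± 1.78 (SD, n = 3). Per2 made up 7.33%, 5.80% and 4.50% of the Per sum in control and 9.77%, 11.2% and 13.6% in the repletion samples, again without overlap. Per1 was the main Per gene in every sample, at 72.8% to 79.8% in control and 68.4% to 74.0% in the repletion samples. The Nr1d1 share of the REV-ERB sum was 33.6% ± 2.13 in control and 25.5% ± 5.72 in the repletion group, and the groups overlapped because repletion sample 1 stood at 32.0%. Clock made up 67.0% to 71.1% of the sum of Clock and Arntl in control and 70.4% to 77.3% in the repletion group, with overlap. The shares are given as a description, with no test.

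**Figure D3:**
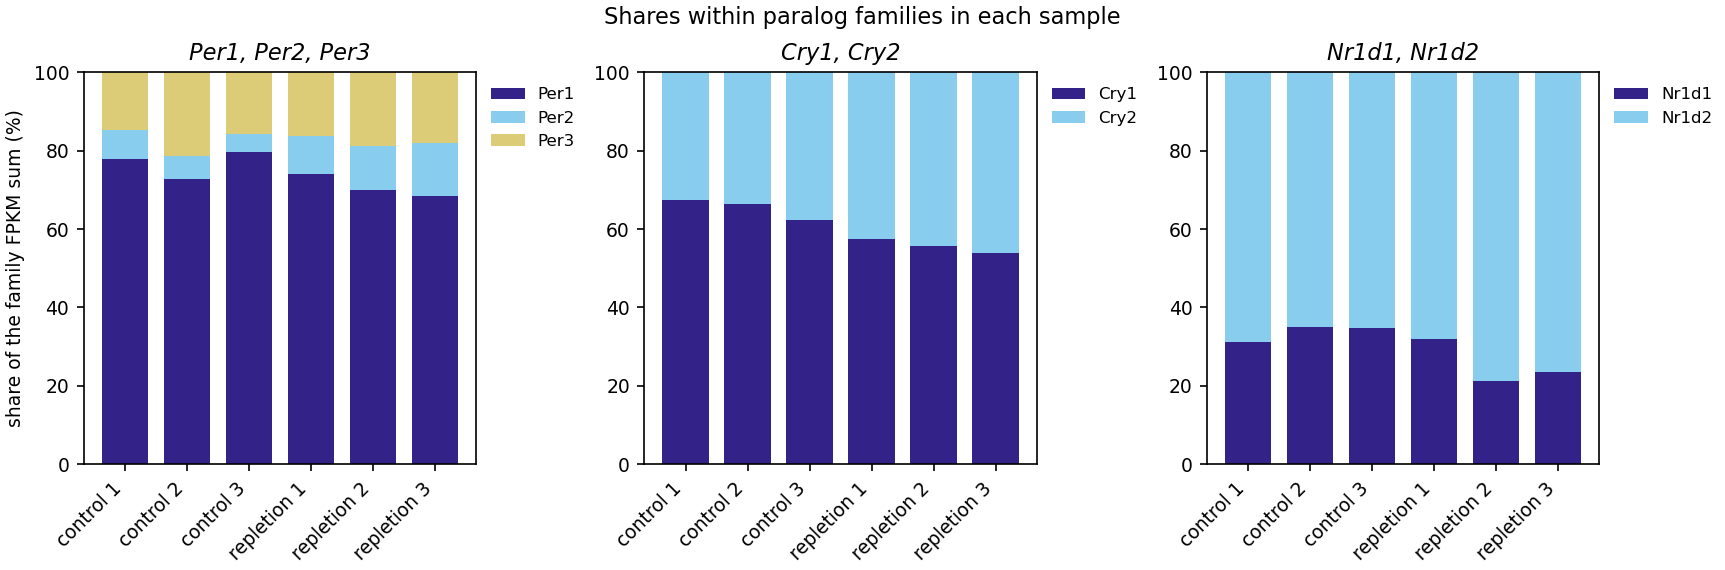
Share of each paralog in the FPKM sum of its family (y axis, %) in each of the 6 samples (x axis). The Cry2 part is larger in all 3 repletion samples (42.6% to 46.2%) than in the controls (32.7% to 37.7%), and the Nr1d1 part of repletion sample 1 (32.0%) lies among the controls.

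Paralogs of the activators and the ROR receptors, which drive Arntl, were examined next. Of 4 genes, 3 were tested, 1 of which rose and 0 fell, with a median log2 fold change of 0.00. By the same rule 20.5% of all tested features rose and 19.2% fell. Rorb, a ROR receptor gene best known from brain and retina, stood at 10.1, 9.45 and 11.1 CPM in control and 31.5, 31.3 and 26.3 CPM in the repletion group. All repletion samples were at more than 2 times the highest control, and Rorb rose by 1.54 ± 0.16 (adjusted p = 1.5e-06). Rora, another ROR receptor gene, had a log2 fold change of -0.47 (adjusted p = 0.283). It was at -0.21 without repletion replicate 1 and at -0.84 with the length and GC trend removed (adjusted p = 0.0543), within -0.84 to -0.21 and adjusted p of 0.0543 to 0.642 across its alternatives. Arntl2, a paralog of Arntl, had 5.84 ± 2.03 and 5.85 ± 0.718 CPM (SD, n = 3; adjusted p = 0.9998). Npas2, which can stand in for Clock, had 0, 0 and 0 counts in control and 12, 4 and 3 in the repletion libraries, and did not pass the filter on low counts.

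Of 11 tested regulators under clock control, 1 rose, 2 fell and 8 did not pass, against 39.7% called in either direction over all tested features, with a median log2 fold change of -0.10. Bhlhe40, which encodes the E-box repressor DEC1, stood at 83.4, 98.5 and 66.9 CPM in control and 44.1, 54.3 and 60.8 CPM in the repletion group, without overlap. It fell by 0.64 ± 0.15 (adjusted p = 0.00214). Ciart, which encodes a repressor of CLOCK and ARNTL, stood at 10.7, 10.6 and 7.84 CPM in control and 5.66, 7.68 and 4.79 CPM in the repletion group, and the nearest samples of the groups almost touched. Ciart fell by 0.68 ± 0.23 (adjusted p = 0.0276). The Ciart call was lost without control replicate 1 (0.0776) or 2 (0.0882) and without repletion replicate 1 (0.0521) or 3 (0.119), and its adjusted p went from 0.00792 to 0.119 across the alternatives.

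Wee1, a gene with E-box control whose kinase product restrains entry into mitosis, went from 170.4 ± 25.9 to 213 ± 10.6 CPM (SD, n = 3). Wee1 rose by 0.32 ± 0.11 (adjusted p = 0.0315). The Wee1 call was lost without control replicate 2 or 3 or repletion replicate 2 or 3 (0.0824 to 0.200), with no filter on low counts (0.0541) and with a replicate block (0.0514), within 0.00756 to 0.200 across its alternatives. The other listed regulators did not pass. Tef, a relative of Dbp, had a log2 fold change of -0.10 (adjusted p = 0.494), and Bhlhe41, which encodes DEC2, one of 0.24 (adjusted p = 0.168). Hlf, the other relative of Dbp, had 5, 8 and 21 counts in control and 23, 24 and 33 in the repletion libraries, with a log2 fold change of 1.22 (adjusted p = 0.0946). Hlf passed without control replicate 3 (1.93, adjusted p = 0.0464, from 0.0464 to 0.287 across its alternatives). Nfil3, a D-box repressor gene, had a log2 fold change of -0.53 (adjusted p = 0.0644). Nfil3 passed when repletion replicate 1 was left out (-0.63, adjusted p = 0.0486, from 0.0486 to 0.198 across its alternatives).

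Kinases, phosphatases and ubiquitin ligases set the stability of clock proteins. Of 22 tested genes of these enzymes, 5 rose, 7 fell and 10 did not pass, where 20.5% of all tested features rose and 19.2% fell, with a median log2 fold change of -0.09. Gsk3b, a kinase gene whose product phosphorylates several clock proteins, went from 93.5 ± 1.73 to 177 ± 11.8 CPM (SD, n = 3) and rose by 0.92, while its paralog Gsk3a fell by 0.52. Dyrk1a, another kinase gene, rose by 0.57, or by 0.38 with the length and GC trend removed. Huwe1 and Usp7, genes of a ubiquitin ligase and a deubiquitinase, rose by 0.54 and 0.41. With that trend removed, Huwe1 was at -0.0014 (adjusted p = 0.993, from 5.6e-05 to 0.993 across its alternatives) and Usp7 at 0.23 (adjusted p = 0.0656, from 8.1e-04 to 0.0656). The phosphatase genes Ppp1ca and Ppp1cb fell by 0.51 and 0.49, and Ppp1cb fell by 0.77 with the trend removed. Csnk2a1, a casein kinase 2 gene, fell by 0.38, and its call was lost without repletion replicate 3 (adjusted p = 0.0549, from 3.7e-04 to 0.0549 across its alternatives).

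Partners of the clock proteins in transcription were examined last. Of 18 tested co-activator, co-repressor and chromatin genes, 6 rose, 3 fell and 9 did not pass, beside the same 20.5% and 19.2% of all tested features, with a median log2 fold change of 0.02. Cipc, which encodes a CLOCK-interacting inhibitor, stood at 84.4, 79.2 and 74.4 CPM in control and 47.0, 49.5 and 43.2 CPM in the repletion group. The groups were well apart, and Cipc fell by 0.77 ± 0.11 (adjusted p = 6.0e-05). Timeless and the deacetylase gene Sirt1 fell by 0.51 and 0.53. Sfpq, which encodes a PER-associated RNA-binding protein, went from 194 ± 21.2 to 316 ± 33.2 CPM (SD, n = 3) and rose by 0.71. The acetyltransferase genes Crebbp and Ep300 rose by 0.80 and 0.62, and the methyltransferase gene Kmt2a rose by 0.75. With the length and GC trend removed, Crebbp was at 0.45, Kmt2a at 0.31 and Ep300 at 0.24, and Ep300 did not pass (adjusted p = 0.0636, from 1.4e-06 to 0.0636 across its alternatives).

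**Figure D4:**
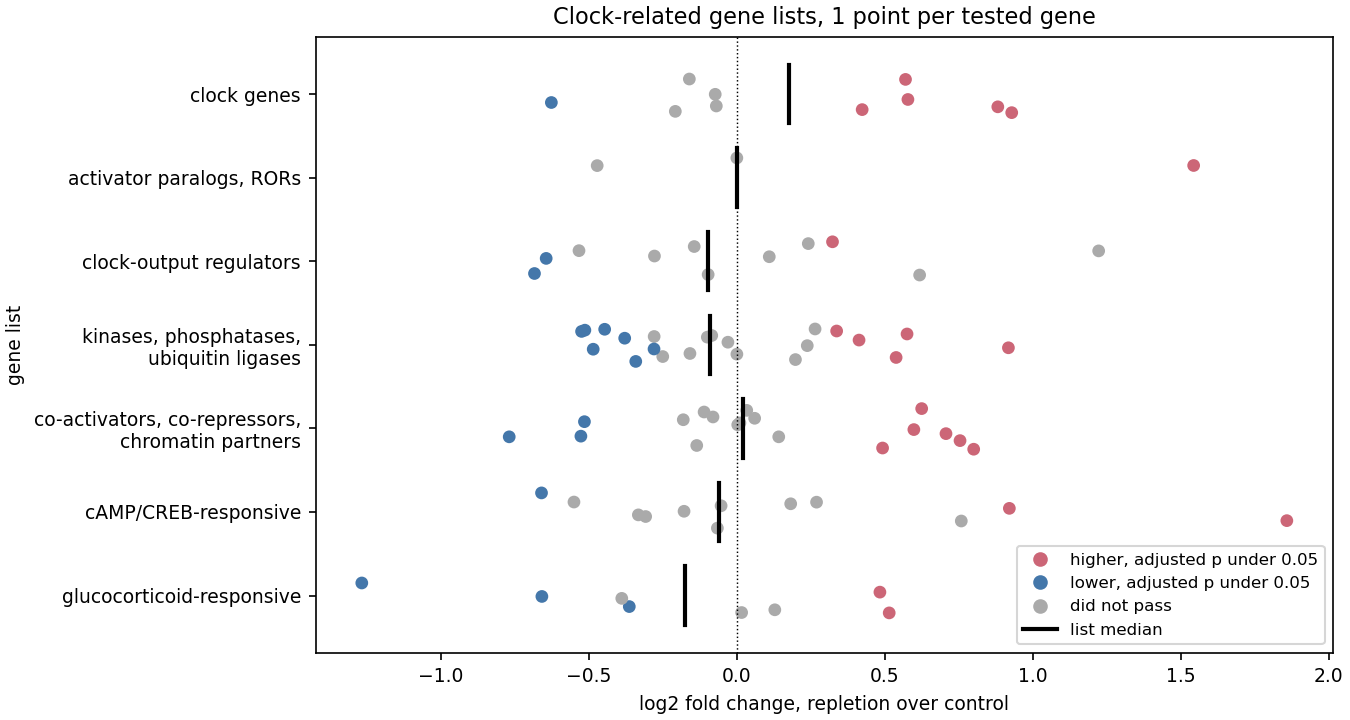
Log2 fold change (x axis, repletion over control) of every tested gene in the clock genes and 6 related lists (rows), coloured by whether it was higher, lower or not called at an adjusted p of 0.05, with the list median. The clock genes have 5 higher and 1 lower point, and the medians lie between -0.17 and 0.18.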

How the data were processed

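RNA-seq of 6 samples in 2 groups of 3, grouped by the labels, was analysed from 1 deposited table. Per the submitters' processing notes, which give no roles, the tools were DESeq2 1.20.0, featureCounts 1.5.0-p3 and HISAT2 2.0.5, with GRCm38.p6. Per the file headers, the table holds raw read counts, FPKM (used here for levels between genes and for family shares), and the authors' log2 fold changes, p-values and adjusted p-values. Counts were filtered with filterByExpr, leaving 13804 of 55232 features, scaled with TMM and tested two-sided with the quasi-likelihood test of edgeR 4.0.16 (R 4.3.3), Benjamini-Hochberg adjusted, threshold 0.05. CPM are TMM-scaled, except that marker sums use the library total. The test was tried on simulated data. Overlaps and copies (BLAST 2.17.0, at least 95% identity over 100 bases) used GENCODE on GRCm38.

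The members and lists were chosen with earlier results of these data known. Of each related list, the text names up to 4 called genes per direction with the smallest p, and always Npas2, Arntl2, Rora, Rorb, Tef, Hlf, Nfil3, Bhlhe40, Bhlhe41 and Ciart. The result of 1 gene on the lists is not reported here, and its list is counted without it. Alternatives were DESeq2 1.42.0, limma-voom (3.58.1), RLE, upper-quartile or no scaling factors, no filter, only protein-coding genes, at least 1 CPM in 3 samples, a replicate block, removal of a length and GC trend, and each sample left out in turn. Counts of same-group samples differed beyond sampling noise (chi-square per feature 8.56 to 23.3).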

Additional observations from a re-analysis of the deposited data

How the results depend on the processing

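Clock, Arntl and Nr1d1 kept their calls under all 16 alternatives. With no filter on low counts, 3 members were called higher, against 5. That setting called 2749 of 26376 features higher, against 2830 of 13804. With the length and GC trend removed, 2 members were called lower, against 1, the added one being Per1. Leaving out 1 sample gave 2 to 5 members called higher and 1 called lower each time, and across all tested features 2195 to 2765 higher and 1977 to 2745 lower. Removing the length and GC trend gave 2267 features higher and 3495 lower, against 2830 and 2654, and library size only gave 3214 and 2199. With no filter the median log2 fold change of all tested features moved by 0.13. With the length and GC trend removed that median was -0.08. Per3 was at 0.11 without control replicate 2, within -0.24 to 0.11 when each sample was left out. Arntl2, at 0.00, was at -0.015 with upper-quartile factors, -0.036 with no filter, -0.10 with the length and GC trend removed and -0.28 to 0.16 with 1 sample left out. Huwe1 was at -0.0014 with that trend removed. The cause was not tested. Of 33 named genes with a call, 20 kept it and their direction under every alternative, and of 10 without one, 3 passed under at least 1. The labels do not pair same-numbered samples, whose deviations from the group means correlated at -0.076, -0.033 and 0.055, and only the samples numbered 3 correlated best with each other. A replicate block gave 2485 features higher and 2353 lower, 4 members higher and 1 lower, and removed the calls of Dbp, Wee1 and Fkbp5 among the named genes. At 46 to 105 counts per library, Per2 had the fewest counts of the members.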

Other observations

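Glucocorticoids and cAMP can induce Per genes acutely. Of 8 tested glucocorticoid-responsive genes, with the receptor gene Nr3c1 counted among them, 2 rose, 3 fell and 3 did not pass. By the same rule 20.5% of all tested features rose and 19.2% fell. The list had a median log2 fold change of -0.17, and Zbtb16 and Klf15 were not tested. Tsc22d3, a glucocorticoid receptor target known as GILZ, stood at 31.0, 31.7 and 33.4 CPM in control and 13.6, 14.0 and 12.3 CPM in the repletion group, and fell by 1.27 ± 0.14 (adjusted p = 4.1e-06). Cebpd fell by 0.66 and Fkbp5, a receptor co-chaperone gene, fell by 0.36 (adjusted p = 0.0277). The Fkbp5 call was lost with library size only, with a replicate block and without control replicate 2 or 3 or repletion replicate 2 or 3 (0.0597 to 0.0964), within 9.7e-04 to 0.0964 across its alternatives. With the length and GC trend removed, Fkbp5 fell by 0.58. The receptor gene Nr3c1 rose by 0.51 and the kinase gene Sgk1 by 0.48.

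Of 12 tested cAMP- and CREB-responsive genes, with the regulator genes Creb1 and Crtc2 counted among them, 2 rose, 1 fell and 9 did not pass. Their median log2 fold change was -0.06. Among all tested features 20.5% rose and 19.2% fell, or 39.7% in either direction. Nr4a2, a nuclear receptor gene, had 66, 76 and 52 counts in control and 126, 156 and 93 in the repletion libraries, and rose by 0.92 ± 0.28 (adjusted p = 0.0135). Its call was lost without control replicate 3 (0.0723) and without repletion replicate 2 (0.0729), within 0.00754 to 0.0729 across its alternatives. Pde4d, a cAMP phosphodiesterase gene, rose by 1.86 ± 0.69 (adjusted p = 0.0408), from 2, 12 and 3 counts to 13, 22 and 29. In CPM the groups overlapped, at 0.761 in control sample 2 and 0.759 in repletion sample 1. Pde4d was at 3.02 without control replicate 2, and its call was lost without control replicate 1 or 3 or repletion replicate 2 or 3, with no filter and with the length and GC trend removed (0.0574 to 0.180), within 0.0151 to 0.180 across its alternatives. Fos, an immediate early gene, had 908, 702 and 549 counts in control and 728, 417 and 266 in the repletion libraries, which overlapped, and fell by 0.66 ± 0.26 (adjusted p = 0.0493). Fos fell by 1.09 without repletion replicate 1 and was at -0.38 without repletion replicate 3, and its call was lost under 10 of 16 alternatives, with adjusted p from 1.8e-05 to 0.262 across them.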
